A study of Mus musculus with 2 samples.

Results

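The 9 genes described here regulate or carry out the cell's response to activation of the transcription factor ATF4 and its partner CHOP: Atf4, Ddit3, Atf5, Cebpg, Nupr1, Trib3, Chac1, Sesn2 and Ddit4. They were taken by symbol from the 32227 genes of the deposited matrices, and all 9 were found. Where several entries carried a symbol, the one with the lowest Ensembl number was used. Cells of Meta4 organoids, a dysplastic line from the mouse stomach corpus, were profiled by single-cell RNA sequencing (PIPseq). The tested culture had received pyrvinium, an anthelmintic dye, for 1 day, and the other its solvent DMSO. Both came from animals carrying Mist1-CreERT2, an inducible Cre driven by the promoter of a chief cell transcription factor, and an LSL-K-ras allele that Cre switches on, each in 1 copy, and both had undergone dysplasia induction. There was 1 library per treatment. All comparisons are between these libraries, with no replicate and no test, and intervals cover counting error only. Whether the line is 1 clone or from 1 animal is not given in the sources used here.

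In the integrated stress response, any of 4 kinases phosphorylates the initiation factor eIF2 when amino acids run short, unfolded protein builds up in the endoplasmic reticulum (ER), mitochondria fail or viral RNA is sensed. Most translation slows, while Atf4 mRNA is translated more, through upstream open reading frames in its leader, so that Atf4 mRNA and ATF4 protein can move apart. ATF4 pairs with C/EBP factors at composite elements in the genes for amino acid supply and for further regulators, among them CHOP, the product of Ddit3. Only mRNA was measured here.

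Composite elements of this kind, and the core of the hypoxia response element, were looked for in the 250 bases before the annotated start of each gene, since the results below set the genes beside both ATF4 and hypoxia targets. All 9 genes had an entry among the RefSeq promoters (GRCm38.p6, an older build than that of the count files). The composite C/EBP-ATF element, searched on both strands as TGATGNAA, was found in 2 of the 9 genes, Chac1 and Nupr1, and in 3.45% of 32851 promoters. The hypoxia core ACGTG, on both strands, was found in Nupr1 and Ddit4 and in 16.6% of promoters. The ER stress element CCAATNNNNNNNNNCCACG was found in 0 of the 9 and in 0.113% of promoters. The promoters with a match follow, 5′ to 3′ toward the gene, with the matched bases in capitals. The match of Chac1 (chr2:119350992-119351241, plus strand) is a composite element on the opposite strand, 193 bases before the start. Nupr1 (chr7:126625471-126625720, minus strand) has overlapping hypoxia cores on both strands at 225 and 224 bases, and a composite element on the opposite strand at 110 bases. Ddit4 (chr10:59951771-59952020, minus strand) has 1 hypoxia core, at 187 bases. A match is a run of letters, not a site shown to be bound.
Chac1: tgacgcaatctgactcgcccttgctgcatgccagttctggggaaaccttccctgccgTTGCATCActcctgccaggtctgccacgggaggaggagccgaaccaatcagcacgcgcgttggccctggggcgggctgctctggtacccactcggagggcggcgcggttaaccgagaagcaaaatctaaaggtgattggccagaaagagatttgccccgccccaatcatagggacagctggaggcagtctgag
Nupr1: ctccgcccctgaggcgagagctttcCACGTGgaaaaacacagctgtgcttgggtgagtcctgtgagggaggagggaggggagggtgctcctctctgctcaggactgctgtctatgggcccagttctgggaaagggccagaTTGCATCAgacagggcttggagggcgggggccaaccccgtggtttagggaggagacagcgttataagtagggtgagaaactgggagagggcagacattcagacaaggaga
Ddit4: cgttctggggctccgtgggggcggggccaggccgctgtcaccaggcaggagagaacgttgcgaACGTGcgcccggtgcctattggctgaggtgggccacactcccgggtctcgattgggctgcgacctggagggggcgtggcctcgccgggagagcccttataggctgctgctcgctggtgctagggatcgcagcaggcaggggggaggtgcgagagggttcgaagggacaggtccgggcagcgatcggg

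A barcode was taken as a cell from 13100 counts in the pyrvinium library and 9320 in the DMSO library, which gave 854 pyrvinium cells and 1602 DMSO cells. The pyrvinium cells were deeper, with a median of 31517 counts against 18592.5 in DMSO cells. The files share 12981 barcodes, but 0 of the kept cells. Epithelial keratins and adhesion genes were counted in both libraries, with 6 of 6 markers at 10 CPM (counts scaled to a library total of 1000000) or more and sums of 5375 CPM under pyrvinium and 8199 CPM under DMSO. Fibroblast markers (0 of 6 at that level) summed to 0.81 and 1.03 CPM in the pyrvinium and DMSO cells, and immune markers (0 of 5) to 1.08 and 0.60 CPM, with Csf1r at 0 under pyrvinium. Of the 3 endothelial markers, which summed to 58.9 CPM under pyrvinium and 43.2 CPM under DMSO, Cdh5 made up nearly all. Markers of mature corpus lineages were near 0 for parietal cells (sums of 1.81 and 1.95 CPM, with Atp4b at 0 under pyrvinium) and low for chief cells (4.45 CPM under pyrvinium and 9.40 CPM under DMSO). Surface mucous markers summed to 405 CPM under pyrvinium and 334 CPM under DMSO, nearly all Tff1, mucous neck markers to 35.5 and 34.1 CPM, mostly Tff2, tuft markers to 94.9 and 80.9 CPM, nearly all Pou2f3, and endocrine markers to 0.35 and 0.15 CPM. Genes of S phase and of G2 and M phase were lower in the pyrvinium library, 12 of 12 and 9 of 12 by at least 1.5-fold. Of all genes with enough counts, 15.5% were lower by this limit. Ratios within cells of like S phase or G2M counts are given after those by depth.

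Of the 9 genes, 7 were at least 1.5-fold higher in the pyrvinium library with the whole counting interval above 1, and 0 were lower. Over all 15586 genes that reached 20 counts over both libraries, 7.57% were higher by this rule and 15.5% were lower. The median log2 ratio of pyrvinium over DMSO was 0.88 over the 9 genes and -0.08 over all genes tested. The transcription factor Ddit3 and the pseudokinase Trib3 stood farthest apart, while Sesn2, a brake on growth signalling, was the exception in direction. Levels below are sums over all cells of a library, in CPM of that library, with 95% Poisson intervals.

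Ddit3 encodes CHOP, a C/EBP-family factor that ATF4 induces and that promotes cell death when stress persists. It reached 311 CPM (305 to 317) in pyrvinium cells, against 39.1 CPM (37.2 to 41.1) in DMSO cells. The 7.96-fold difference, 2.99 on the log2 scale (2.92 to 3.07), placed it 17th from the top of the 15586 genes. A second gene entry with the same symbol (ENSMUSG00000116429, beside ENSMUSG00000025408 for the one used) held few counts, 1.43 CPM under pyrvinium and 0.400 CPM under DMSO, with a 3.57-fold difference in the same direction.

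Atf4, the central factor of the pathway, differed much less. Its mRNA stood at 244 CPM (239 to 249) under pyrvinium and 132 CPM (129 to 136) under DMSO. The log2 ratio was 0.88 (0.83 to 0.93), or 1.84-fold, 760th from the top.

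Atf5, a related factor linked to the mitochondrial stress response and itself translated through upstream reading frames, had 39.6 CPM (37.6 to 41.7) with pyrvinium and 9.65 CPM (8.72 to 10.7) with DMSO. This was 4.10-fold higher, a log2 ratio of 2.04 (1.87 to 2.20). Cebpg, a C/EBP protein that forms dimers with ATF4, was at 17.6 CPM (16.3 to 19.0) with pyrvinium and 11.8 CPM (10.7 to 12.9) with DMSO. Its log2 ratio of 0.58 (0.41 to 0.76) lay just under the 1.5-fold limit, with an interval on both sides of it. Nupr1, a small chromatin-associated stress protein, was counted at 1309 CPM (1298 to 1321) with pyrvinium and 806 CPM (797 to 815) with DMSO. That is 1.62-fold higher, a log2 ratio of 0.70 (0.68 to 0.72).

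Among the effectors, Trib3, a pseudokinase that ATF4 and CHOP induce and that feeds back on both, had 113 CPM (109 to 116) under pyrvinium and 23.7 CPM (22.2 to 25.2) under DMSO. The 4.76-fold difference (log2 ratio 2.25, 2.15 to 2.36) ranked 53rd. Chac1, an enzyme that degrades glutathione, had 48.7 CPM (46.4 to 51.0) under pyrvinium and 13.1 CPM (12.0 to 14.3) under DMSO. It was 3.72-fold higher, a log2 ratio of 1.90 (1.75 to 2.04). Both effectors thus differed more than Atf4 itself.

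Sesn2 and Ddit4 both restrain the growth kinase complex mTORC1, Sesn2 as a leucine-binding protein and Ddit4 (REDD1) as a product also induced by hypoxia. They differed in opposite directions. Ddit4 had 99.6 CPM (96.4 to 103) in pyrvinium cells and 61.4 CPM (59.0 to 63.9) in DMSO cells, 1.62-fold higher. Sesn2 had 16.95 CPM (15.7 to 18.3) in pyrvinium cells and 19.6 CPM (18.3 to 21.1) in DMSO cells, a log2 ratio of -0.21 (-0.37 to -0.06) that did not reach 1.5-fold. It was the only one of the 9 with a lower level in the pyrvinium library.

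**Figure D1:**
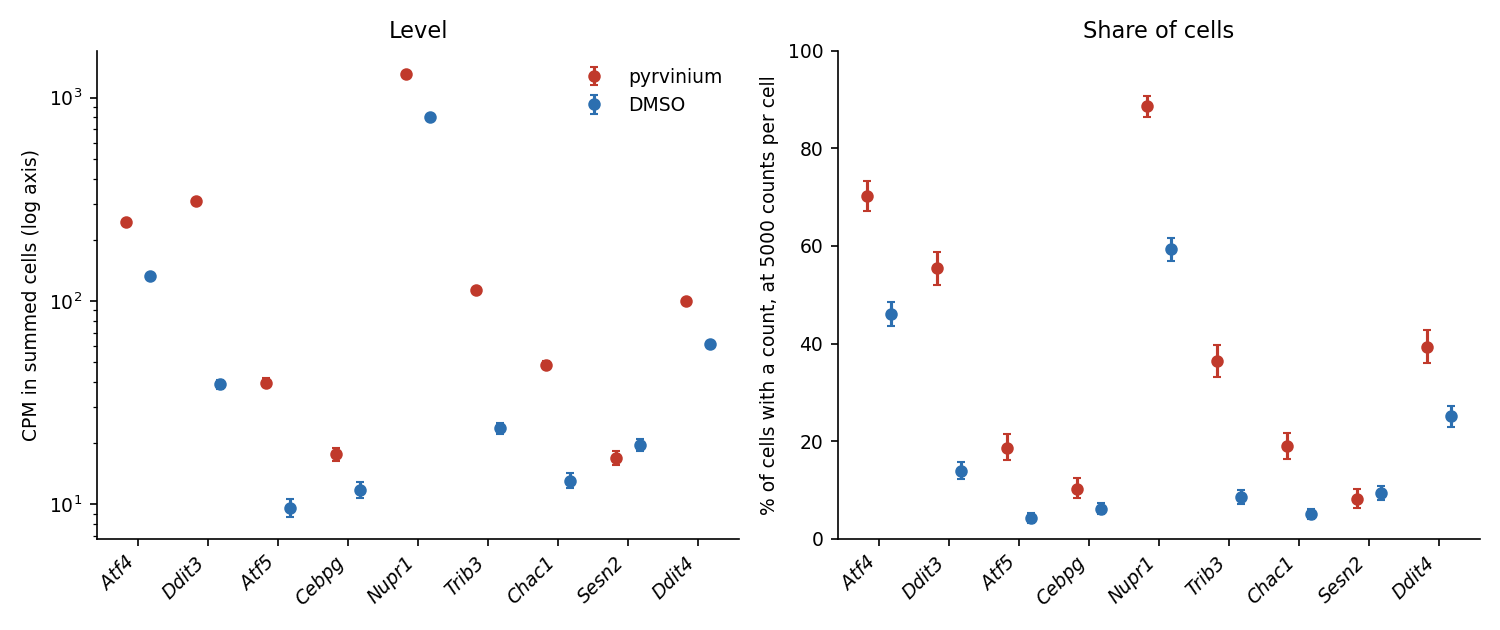
Left, CPM (log axis) of the 9 genes in the summed cells of each library with 95% Poisson intervals; right, percent of cells with a count after each cell was thinned to 5000 counts, with exact binomial intervals. Pyrvinium points lie above DMSO points for every gene but Sesn2, with the widest gap in level at Ddit3.

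Because pyrvinium cells held more counts, shares of cells were compared after each cell had been thinned at random to 5000 counts, below the smallest kept cell of either library. Ddit3 was then counted in 55.4% of pyrvinium cells (52.0 to 58.8, exact binomial) and 13.9% of DMSO cells (12.2 to 15.6). Without thinning the shares were 85.9% and 29.7% in the pyrvinium and DMSO cells. The wider reach of Ddit3 was thus present at equal depth. No cell type that lacks these genes was defined, so the background from free RNA was gauged from barcodes with 100 to 500 counts: if 10% of a cell's counts were free RNA, Ddit3 would be counted in 16.9% of pyrvinium cells and 2.83% of DMSO cells.

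Trib3 was counted in 36.4% of pyrvinium cells (33.2 to 39.7) and 8.55% of DMSO cells (7.23 to 10.03). The shares for Chac1 were 19.0% (16.4 to 21.8) with pyrvinium and 4.99% (3.98 to 6.18) with DMSO. Atf5 was counted in 18.6% of pyrvinium cells (16.1 to 21.4) and 4.18% of DMSO cells (3.26 to 5.28). These 3 genes were each seen in a minority of cells of either library at this depth, in more of the pyrvinium cells. Atf4 was counted in 70.3% of pyrvinium cells (67.1 to 73.3) and 46.1% of DMSO cells (43.7 to 48.6). Nupr1 was counted in 88.8% of pyrvinium cells (86.4 to 90.8) and 59.3% of DMSO cells (56.8 to 61.7), where free RNA at 10% alone would give 61.1% and 42.6%. For Nupr1, a share of cells therefore says little about which cells express it. Ddit4 was counted in 39.3% of pyrvinium cells (36.1 to 42.7) and 25.1% of DMSO cells (23.0 to 27.3). Cebpg shares were 10.3% (8.35 to 12.5) with pyrvinium and 6.12% (4.99 to 7.40) with DMSO. For Sesn2 the intervals overlapped, 8.08% (6.34 to 10.1) with pyrvinium and 9.36% (7.98 to 10.9) with DMSO.

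Within a library the genes were spread unevenly over cells. In pyrvinium cells the level of Ddit3 per cell had quartiles of 50.6, 168 and 441 CPM, and the most expressing 10% of cells were at 727 CPM or more. In DMSO cells the median was 0, the upper quartile 31.0 CPM and the 90th percentile 104 CPM. Thus a pyrvinium cell of median Ddit3 level lay above 9 in 10 DMSO cells. At 5000 counts the variance of Ddit3 counts over their mean was 3.09 in pyrvinium cells and 2.76 in DMSO cells, where Poisson sampling alone gives 1. For Nupr1 this ratio was 13.1 with pyrvinium and 33.9 with DMSO, and for Atf4 1.12 with pyrvinium and 1.29 with DMSO. Atf4 was thus close to Poisson sampling. This ratio grows with the mean count, so it does not rank the genes.

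Counted together, a thinned cell held a median of 4 of the 9 genes in the pyrvinium library and 2 in the DMSO library. None was counted in 0.820% of pyrvinium cells (7 cells) and 14.7% of DMSO cells (236 cells). At least 5 were counted in 22.6% of pyrvinium cells (193 cells) and 4.81% of DMSO cells (77 cells). The summed count of the 9 genes had quartiles of 5, 9 and 13 under pyrvinium and 1, 2 and 5 under DMSO. Most of this sum was Nupr1, with a mean of 6.70 thinned counts per pyrvinium cell and 4.603 per DMSO cell, and free RNA can add to these numbers as it does to the shares above. Of the Ddit3 counts, 42.3% lay in the 10% of pyrvinium cells with most Ddit3 counts, and 84.3% in the same fraction of DMSO cells. This share rises as fewer cells hold a count, so it does not compare the libraries. For the sparse Sesn2, with a variance over mean of 1.03 in each library, it was 100% in both.

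**Figure D2:**
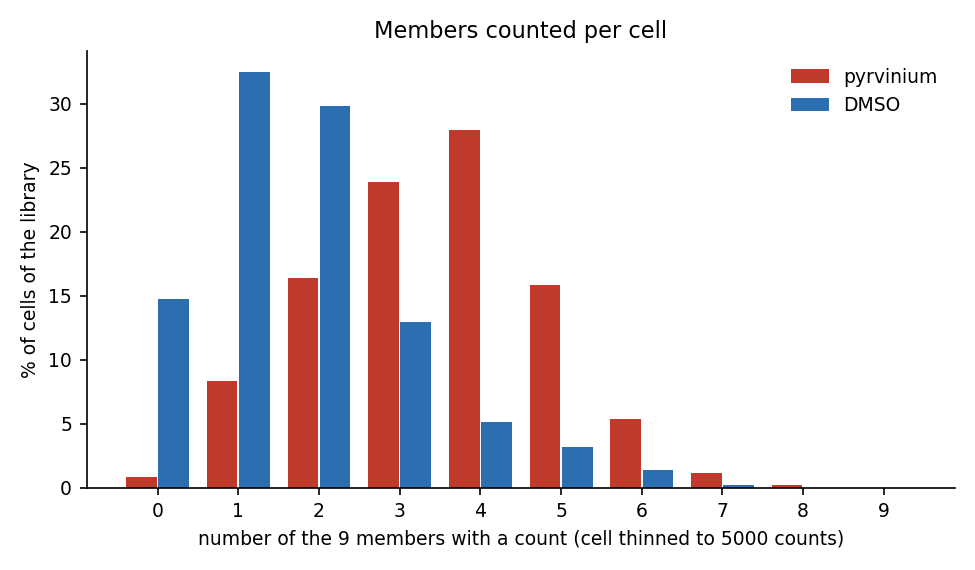
Percent of cells of each library (vertical axis) by the number of the 9 genes with a count in the cell (horizontal axis), after each cell was thinned to 5000 counts. Pyrvinium cells peak at 4 genes and DMSO cells at 1.

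Cells were grouped by their other genes, with the 9 genes and their pathway lists left out. Levels were standardized within each library first, so a shared cluster joins cells placed alike within their own library, not cells of equal levels. This gave 5 clusters, of which clusters 0 and 1 each held at least 30 cells of both libraries. Cluster 0, led by the mitotic genes Plk1, Cdc20 and Ccnb1, held 140 pyrvinium and 656 DMSO cells, and cluster 1, with Dusp4 and Gdf15 foremost, held 425 pyrvinium and 148 DMSO cells. Cluster 4, with Cldn2 and Slc12a2 among its leading genes, held 261 pyrvinium cells and 8 DMSO cells. Leading genes were ranked over all genes against all other cells of both libraries. Genes left out of the grouping were thus among them: Atf5, Chac1 and Xbp1 in cluster 4, and Ddit3, Gdf15 and Gadd45a in cluster 1. Cluster 2, with Fosb and Egr1, held 27 pyrvinium and 479 DMSO cells, and cluster 3, with Mgarp and Ndrg1, 1 pyrvinium cell and 311 DMSO cells. A cluster nearly all of 1 library may be that library and not a cell type, so clusters keep their numbers, and levels are given where a library had at least 30 cells.

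Within the shared clusters Ddit3 differed far more than over all cells. In cluster 0 it stood at 303 CPM with pyrvinium and 14.6 CPM with DMSO, 20.8-fold higher, and in cluster 1 at 465 CPM with pyrvinium and 21.6 CPM with DMSO, 21.5-fold higher. Trib3 was 9.64-fold higher in the mitotic cluster 0 (145 CPM with pyrvinium, 15.03 CPM with DMSO) and 4.999-fold higher in cluster 1 (120 CPM with pyrvinium, 24.0 CPM with DMSO). Chac1 was 6.07-fold higher in cluster 0 but 1.73-fold higher in cluster 1. Nupr1 was 3.86-fold and 2.25-fold, Atf5 3.13-fold and 2.40-fold, and Atf4 2.35-fold and 1.90-fold higher in clusters 0 and 1. All of these ratios were above 1.5. Cebpg (1.73-fold in cluster 0, 1.15-fold in cluster 1) and Ddit4 (2.12-fold and 1.29-fold) passed 1.5-fold in cluster 0 and not in cluster 1. Sesn2 stood at 0.83 and 0.78 times its DMSO level, with counting intervals that covered no change in both clusters. Cells of a shared cluster also differed in other genes. In cluster 1, hypoxia targets summed to 1250 CPM with pyrvinium and 3478 CPM with DMSO, and S phase genes to 208 and 471 CPM.

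The smaller ratio over all cells went with 1 group of DMSO cells. All 9 genes had their highest DMSO level in cluster 3, in which the summed level of 14 targets of the hypoxia-inducible factor (HIF) was 8224 CPM, against 1722, 3478 and 1903 CPM in DMSO cells of clusters 0, 1 and 2. These 311 cells held 17.4% of all counts of the DMSO cells, but 67.2% of their Ddit3 counts, 66.1% of Nupr1, 53.5% of Trib3, 36.9% of Chac1 and 34.5% of Ddit4. Ddit3 was at 151 CPM there, and at 14.6 to 21.6 CPM in the other DMSO clusters. Without these cells, a comparison added after the data were seen, the pyrvinium over DMSO log2 ratio was 4.33 for Ddit3, 3.08 for Trib3 and 1.98 for Nupr1, and 8 genes passed the 1.5-fold rule, as did 8.85% of all genes, with Cebpg the addition. Leaving them out moved Ddit3, Nupr1 and Trib3 by more than 1.5-fold.

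The pyrvinium cells were themselves divided. Cluster 1 had 465 CPM of Ddit3 and cluster 4 had 74.98 CPM, a 6.20-fold difference, while Atf5 ran the other way, with 25.7 CPM in cluster 1 and 66.5 CPM in cluster 4, 2.59-fold higher in cluster 4. Thinned cells with Ddit3 made up 69.6% of cluster 1, 55.0% of cluster 0 and 32.6% of cluster 4. Cluster 4 held 31.7% of the counts of pyrvinium cells, with 7.63% of their Ddit3 counts and 53.2% of their Atf5 counts. Mitochondrially encoded transcripts made up 22082 CPM in cluster 4, 14190 CPM in cluster 0 and 13218 CPM in cluster 1, and their part in this split was not tested. Over pyrvinium cells binned by that share (under 1%, 1 to 2%, 2 to 4%, and 4% or more, with 198, 359, 263 and 34 cells), Atf5 stood at 28.0, 35.8, 53.8 and 82.2 CPM, and Ddit3 at 340, 351, 234 and 171 CPM. Chac1 (61.4 CPM in cluster 4, 39.4 CPM in cluster 1) and Cebpg (22.4 and 14.4 CPM) were also higher in cluster 4, as was Sesn2 (23.1 and 13.7 CPM). Even so, in level summed over a cluster, the lowest pyrvinium cluster lay above the highest DMSO cluster for Atf4, Atf5, Trib3 and Chac1. This did not hold for Ddit3, which had 74.98 CPM in pyrvinium cluster 4, below the 151 CPM of DMSO cluster 3, nor for Nupr1, which had 3055 CPM in DMSO cluster 3, above the 793 to 1478 CPM of the pyrvinium clusters.

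**Figure D3:**
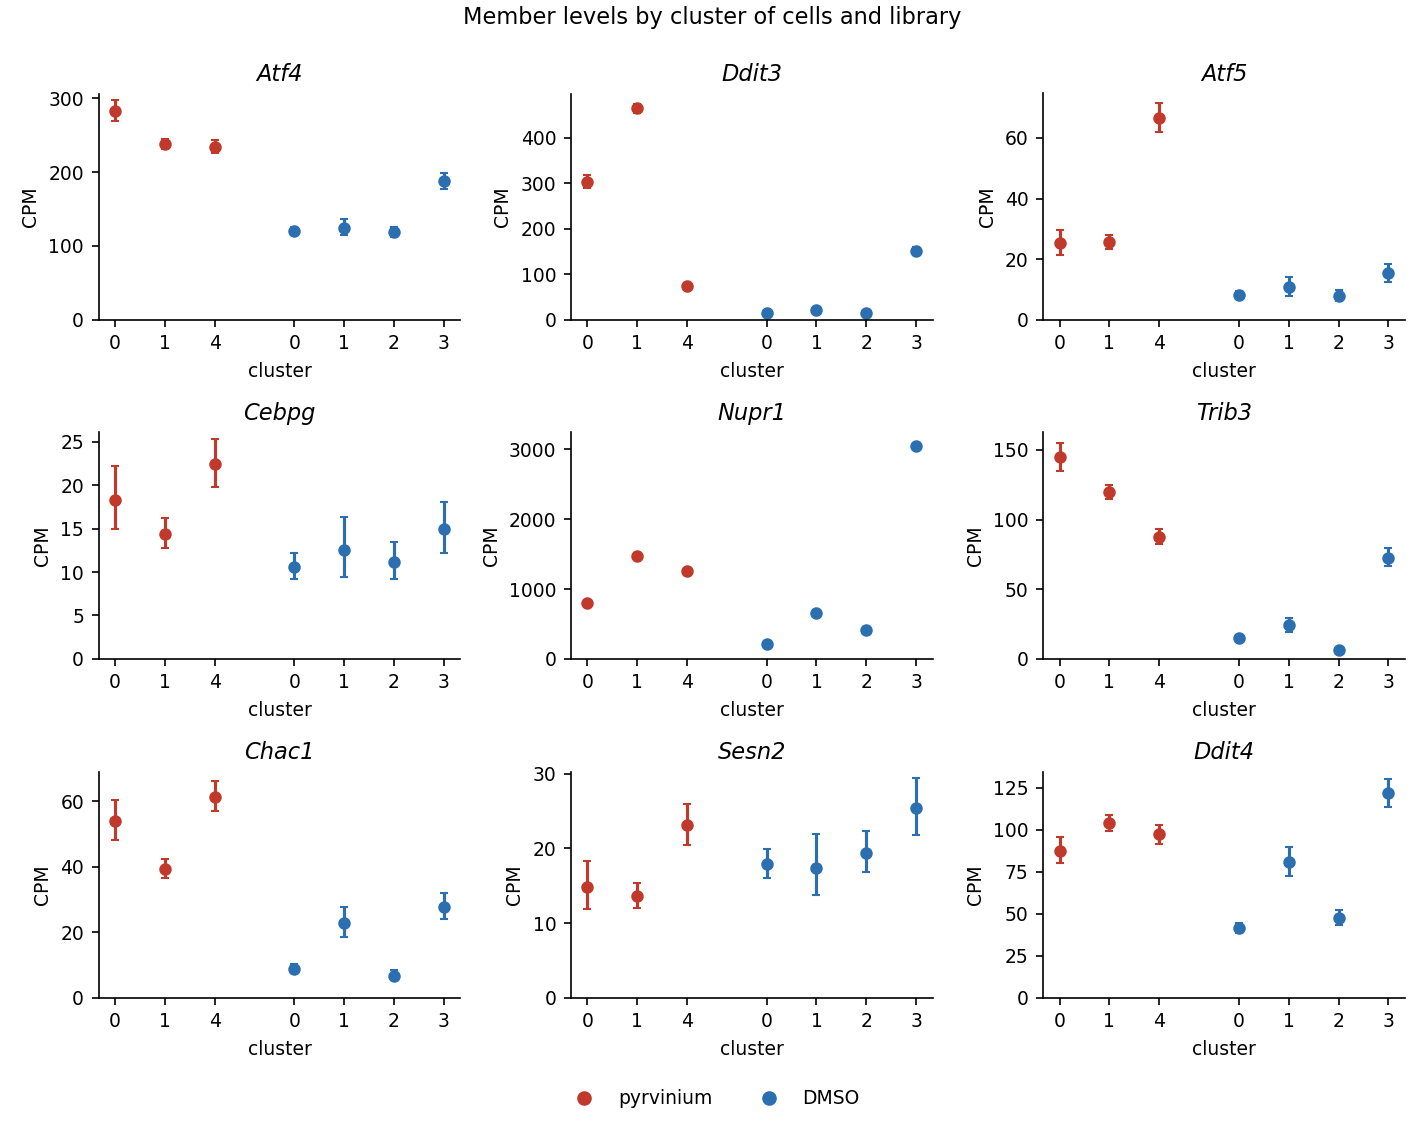
CPM (linear axis from 0) of the 9 genes in each cluster with at least 30 cells of a library, pyrvinium clusters left of DMSO clusters, with 95% Poisson intervals. Ddit3 dips in pyrvinium cluster 4, where Atf5 peaks, and DMSO levels peak in cluster 3.

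Cells were next binned by their HIF target counts per 5000 counts, since most targets were lower in the pyrvinium library. Of the 14 targets, 12 were at least 1.5-fold lower, beside 15.5% of all genes tested, and 0 were higher (median log2 ratio -1.38). The bins of 0 to 1, 2 to 4, 5 to 9 and 10 or more held 47, 292, 396 and 119 pyrvinium cells and 69, 307, 397 and 829 DMSO cells. Ddit3 stood at 409, 345, 302 and 210 CPM over these bins in pyrvinium cells, and at 7.41, 8.19, 9.06 and 68.8 CPM in DMSO cells. The log2 ratios were 5.79, 5.40, 5.06 and 1.61. In DMSO cells Ddit3 was thus high only in the bin with most HIF target counts, while in pyrvinium cells it was highest in the bin with fewest. Nupr1 stood at 2058, 1360, 1296 and 867 CPM in pyrvinium cells and at 136, 273, 252 and 1350 CPM in DMSO cells. Its log2 ratio was 3.92 in the lowest bin and -0.64 in the highest, where the DMSO cells had the higher level. Trib3 had log2 ratios of 4.37, 4.82, 3.81 and 1.12 over the bins.

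Ddit4, itself known as a HIF target, had log2 ratios of 1.85, 1.80, 1.35 and 0.31, with 82.0, 94.997, 102 and 110 CPM in pyrvinium cells and 22.7, 27.3, 40.2 and 88.6 CPM in DMSO cells. It increased over the bins in both libraries, with the steeper slope under DMSO. Sesn2 had log2 ratios of 0.03, 0.03 and -0.01 in the first 3 bins and -0.83 in the highest. The highest bin held 57 Sesn2 counts under pyrvinium. In this split its lower level under pyrvinium lay in the cells with 10 or more HIF target counts. Splits by mitochondrial share and by S phase counts placed the lower level in other cells. Over the bins of mitochondrial share given above, the log2 ratios of Sesn2 were -0.56, -0.47, 0.30 and 0.58. They were -0.32, -0.38 and 0.33 in cells with 0 to 1, 2 to 4, and 5 or more S phase counts per 5000. Over bins of G2M counts they were -0.23, -0.12 and -0.15. Across single cells, Pearson's r with the HIF target count was -0.10 for Ddit3 in 854 pyrvinium cells and 0.35 in 1602 DMSO cells. For Nupr1 it was -0.11 under pyrvinium and 0.53 under DMSO. For the other genes it was between -0.05 and 0.00 under pyrvinium and between 0.04 and 0.32 under DMSO. These values share the library and the thinning to 5000 counts, and are descriptions.

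**Figure D4:**
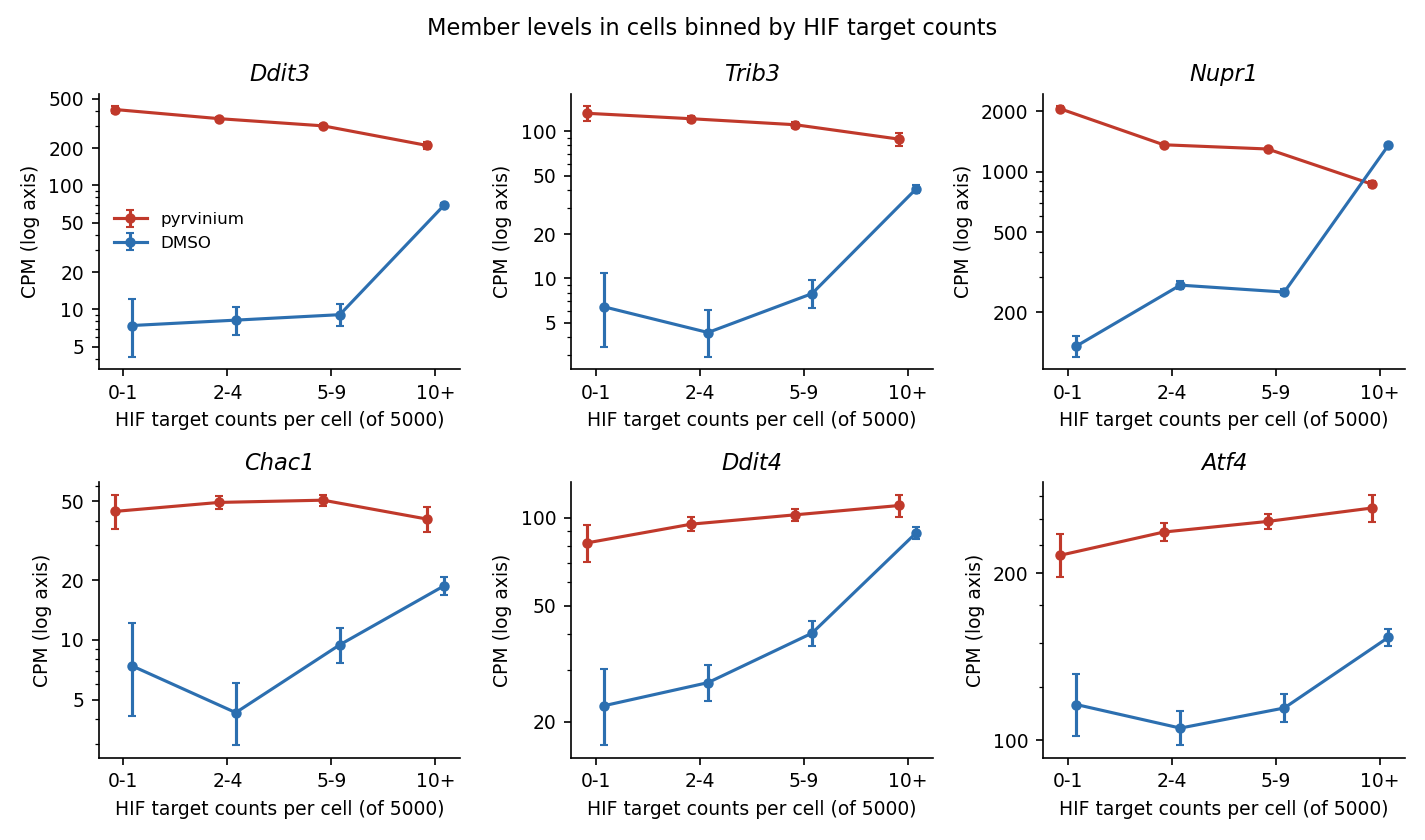
CPM (log axis) of 6 of the genes in cells binned by the number of HIF target counts per 5000 counts (horizontal axis), with 95% Poisson intervals. Ddit3, Trib3 and Nupr1 decline over the bins in pyrvinium cells and are highest in the last bin in DMSO cells, where the Nupr1 lines cross.

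Depth per cell moved with some of these differences. In cells with under 20000, 20000 to 30000, 30000 to 50000, and 50000 or more counts, the log2 ratio was 2.46, 2.73, 3.15 and 3.69 for Ddit3 and 0.19, 0.63, 0.89 and 1.37 for Nupr1. For Atf4 it stayed between 0.90 and 0.98. Ddit3 was higher in pyrvinium cells in every depth bin, and Nupr1 passed 1.5-fold in the 3 deeper bins. The mitochondrial share also differed, at 1.63% of counts in pyrvinium cells and 2.57% in DMSO cells. Over the bins of this share given above, the pyrvinium level of Nupr1 was 0.74, 1.14, 2.66 and 4.61 times the DMSO level. Nupr1 thus did not pass 1.5-fold in the bins under 2%. For Ddit3 the ratios were 5.43, 7.58, 7.04 and 5.48.

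Cell cycle counts moved with some of them too. Bins of 0 to 1, 2 to 4, and 5 or more S phase counts per 5000 held 530, 266 and 58 pyrvinium cells and 558, 560 and 484 DMSO cells. Over these bins the pyrvinium level was 4.99, 8.14 and 7.27 times the DMSO level for Ddit3, and 3.07, 5.77 and 6.27 times for Trib3. For Nupr1 it was 0.95, 1.76 and 1.94 times, and for Ddit4 1.19, 1.66 and 2.47 times. In the cells with fewest S phase counts, Nupr1 and Ddit4 thus did not pass 1.5-fold, while Ddit3 and Trib3 did in each bin. Cebpg stood at 1.35, 1.53 and 1.76 times its DMSO level. Over bins of G2M counts with the same limits, the ratios were 5.19, 15.3 and 13.4 for Ddit3, 1.16, 2.57 and 2.54 for Nupr1, and 1.40, 1.92 and 1.77 for Ddit4. Here too Nupr1 and Ddit4 missed 1.5-fold in the bin with fewest counts.

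Across the 36 pairs of the 9 genes, the correlation of counts in the same cell was mostly small at this depth. Pearson's r of log thinned counts across cells had a median of 0.03 in the pyrvinium library (range -0.04 to 0.36) and 0.07 in the DMSO library (0.01 to 0.50), and exceeded 0.2 for 3 pairs under pyrvinium and 5 under DMSO. With counts this sparse, a small r does not show a loose link, and most of these values are no finding. The exceptions joined Ddit3, Nupr1 and Trib3. Ddit3 and Nupr1 had r of 0.36 under pyrvinium and 0.50 under DMSO, Ddit3 and Trib3 0.27 and 0.41, and Nupr1 and Trib3 0.24 and 0.40. Ddit3 and Trib3 were counted in the same cell in 26.1% of pyrvinium cells, where the product of their shares is 20.2%, and in 4.18% of DMSO cells, where it is 1.19%. The observed share was thus 1.29 times the product with pyrvinium and 3.53 times with DMSO. This ratio can grow larger where genes are counted in fewer cells, so these values do not compare the strength of the link. It was above 1 for 28 of the 36 pairs under pyrvinium and for all 36 under DMSO. The pairs of Nupr1 with Ddit4 and with Chac1 passed 0.2 under DMSO and not under pyrvinium (r of -0.03 and 0.03 under pyrvinium, 0.25 and 0.21 under DMSO), and the difference was not tested. For Atf4 and Ddit3, r was 0.06 under pyrvinium and 0.18 under DMSO.

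The links of Ddit3 were also present inside clusters. For Ddit3 and Nupr1, r was 0.44, 0.35 and 0.30 in pyrvinium clusters 0, 1 and 4. In DMSO cells it was 0.37 in cluster 0, 0.53 in cluster 3 and 0.22 over all cells outside cluster 3. For Ddit3 and Trib3 it was 0.26, 0.27 and 0.21 in those pyrvinium clusters, and 0.26, 0.47 and 0.16 in the same DMSO groups. Both pairs thus had r above 0.2 in each of these clusters, but Ddit3 and Trib3 were below it, at 0.16, over all DMSO cells outside cluster 3. The other DMSO clusters were not examined alone. Differences in r were not tested, and Ddit3 was sparser in DMSO cells outside cluster 3.

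**Figure D5:**
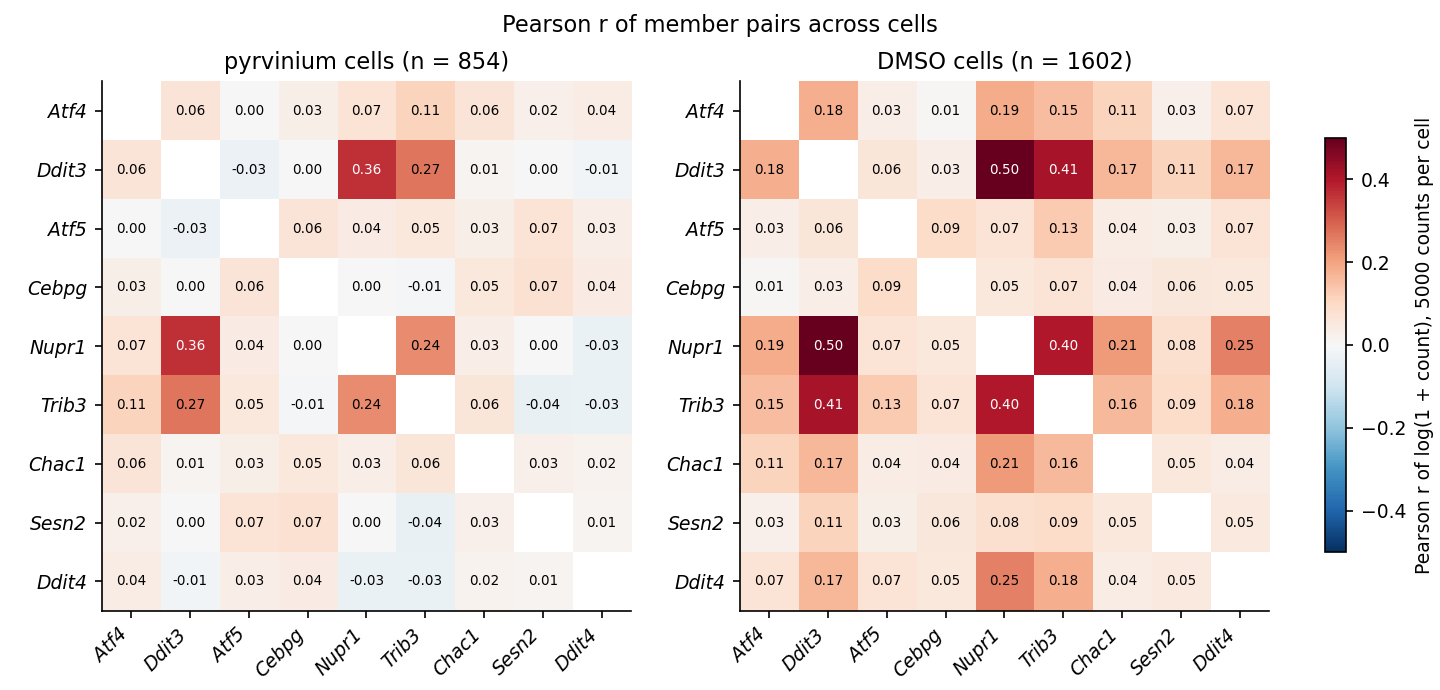
Pearson's r of log thinned counts for each pair of the 9 genes across 854 pyrvinium cells (left) and 1602 DMSO cells (right), with color and printed value giving r. The block of Ddit3, Nupr1 and Trib3 stands out in both panels.

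Among the target genes of ATF4 outside the 9, most were higher. Listed were 35 genes for amino acid synthesis, amino acid transport, tRNA charging and secreted stress signals. Of these, 23 stood at least 1.5-fold above their DMSO level and 0 as far below it, with a median log2 ratio of 0.85. By the same rule 7.57% of all genes tested were higher and 15.5% lower, shares that also stand beside the lists below. The stress hormone Gdf15 had 742 CPM under pyrvinium and 98.7 CPM under DMSO, a log2 ratio of 2.91. Cth, which makes cysteine, was at 137 CPM under pyrvinium and 26.8 CPM under DMSO (2.35), and the cystine importer Slc7a11 at 103 CPM under pyrvinium and 25.2 CPM under DMSO (2.03). The glycine transporter Slc6a9, the transaminase Gpt2 and the serine synthesis enzyme Psph had log2 ratios of 1.83, 1.81 and 1.54. The other 12 targets did not pass, and Slc38a2 (-0.21) and Wars (-0.10) lay slightly below their DMSO level. Per cell, the count of these targets went with Ddit3 in both libraries, with r of 0.38 under pyrvinium and 0.34 under DMSO, as with Trib3 (0.27 and 0.38) and Nupr1 (0.26 and 0.36). For Atf4 itself r was 0.13 and 0.16, and for Chac1 0.05 and 0.24; differences in r were not tested. By cluster their sum was 5477, 4783 and 3373 CPM in pyrvinium clusters 0, 1 and 4, and 2006, 2239, 1539 and 2794 CPM in DMSO clusters 0 to 3. The order over pyrvinium clusters thus differed from that of Atf5, which was highest in cluster 4. Cells were also binned by these counts per 5000, at under 10, 10 to under 20, and 20 to under 40. The bins held 62, 304 and 456 pyrvinium cells and 915, 563 and 117 DMSO cells. Over them the log2 ratio was 0.65, 0.79 and 0.03 for Atf4 and 2.74, 1.77 and -0.03 for Trib3. It was 2.25, 1.71 and -0.08 for Chac1, 2.15, 2.41 and 1.00 for Ddit3, and 0.62, 0.64 and -1.47 for Nupr1. For Atf5 it was 2.14, 1.98 and 0.93.

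The genes named as CHOP targets did not move as a group over all cells. Of 6, 1 was higher (7.57% of all genes tested) and 2 were lower (15.5%), with a median log2 ratio of -0.06. The growth arrest gene Gadd45a had 45.6 CPM under pyrvinium and 10.8 CPM under DMSO, a log2 ratio of 2.08. Ppp1r15a (GADD34), which directs dephosphorylation of eIF2, was lower, with 23.8 CPM under pyrvinium and 62.9 CPM under DMSO (-1.40). Ero1a, an ER oxidase that hypoxia is also known to induce, was lower too, with 106 CPM under pyrvinium and 283 CPM under DMSO (-1.41). The death receptor gene Tnfrsf10b (0.45) and the BH3-only genes Bbc3 (0.01) and Bcl2l11 (3.59 CPM under pyrvinium and 3.95 CPM under DMSO) did not pass 1.5-fold. By cluster the 6 genes summed to 199, 216 and 185 CPM in pyrvinium clusters 0, 1 and 4. In DMSO clusters 0 to 3 they summed to 150, 335, 182 and 1310 CPM. Per cell, their count had r with Ddit3 of 0.18 under pyrvinium and 0.44 under DMSO.

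Upstream of Atf4, mRNA levels differed little. Of 19 genes for the eIF2 kinases, the eIF2 and eIF2B subunits and their regulators, 0 were higher and 1, Ppp1r15a, was lower, with a median log2 ratio of -0.12. The kinase genes had 5.64 CPM under pyrvinium and 7.75 CPM under DMSO for Eif2ak1, 6.75 and 4.93 CPM for Eif2ak2, 9.26 and 10.8 CPM for Eif2ak3, and 4.53 and 4.93 CPM for Eif2ak4. Kinase activity is set by the protein and was not measured. Of 18 folding genes of the ER stress branches run by ATF6 and XBP1, 4 were higher and 1 was lower, with a median of -0.02. Those higher were the sensors Ern1 (1.23) and Atf6 (0.80), Herpud1 (0.80) and the chaperone Hspa5 (0.59, with 526 CPM under pyrvinium and 350 CPM under DMSO). Creld2, a secreted ER stress product, was lower (-0.62). In cluster 1 the 18 genes summed to 2645 CPM with pyrvinium and 1589 CPM with DMSO, and in cluster 0 to 2701 and 2356 CPM. Their sum was 2315 CPM in pyrvinium cluster 4, and 2440 and 3056 CPM in DMSO clusters 2 and 3. Per cell, their count had r with Ddit3 of 0.26 under pyrvinium and 0.31 under DMSO.

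Among 17 further C/EBP and ATF/CREB factors, 4 were higher (7.57% of all genes tested) and 3 lower (15.5%), with a median log2 ratio of -0.01. Atf3, often induced together with Ddit3, was far lower, with 25.7 CPM under pyrvinium and 162 CPM under DMSO, a log2 ratio of -2.65. Of 8 genes induced when tissue is dissociated, 6 were lower and 2 higher, with a median of -2.65, Fos among them with 35.9 CPM under pyrvinium and 491 CPM under DMSO. Their part in the Atf3 difference was not tested. Cebpb, a partner of both ATF4 and CHOP, was higher, with 22.5 CPM under pyrvinium and 13.4 CPM under DMSO (0.75), and Nfe2l1, which drives proteasome genes, had a log2 ratio of 0.98. The paralogues of the 9 genes did not share their direction: of 5 with enough counts, 0 were higher and 1, Trib1, was lower, with 3.35 CPM under pyrvinium and 15.6 CPM under DMSO (-2.22). Chac2 (-0.15), Ddit4l (-0.58, with an interval across the limit), Sesn1 and Sesn3 did not pass the rule, and Trib2 was near 0 in both libraries. Of 11 p53 targets, among them Sesn1, 1 was higher and 1 lower, with a median of 0.21.

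A search for genes like Ddit3 in level per cell covered 3628 genes counted often enough in both libraries. The genes described here were not ranked in it. Among them, r with Ddit3 was 0.36 under pyrvinium and 0.50 under DMSO for Nupr1, and 0.27 and 0.41 for Trib3. Outside them, the 5 genes most like Ddit3 were found by the mean of Pearson's r over both libraries. They were the ER chaperone Hspa5 (0.38 across pyrvinium cells and 0.36 across DMSO cells), the ferritin gene Ftl1 (0.30 and 0.32), the autophagy receptor Sqstm1 (0.35 and 0.26), Ndrg1 (0.16 and 0.44) and the polyamine enzyme Sat1 (0.34 and 0.24). Ndrg1, a HIF target that also led cluster 3, was like Ddit3 mainly under DMSO, while Sqstm1 and Sat1 had their higher r under pyrvinium. These are descriptions over cells of the same libraries.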

How the data were processed

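Single-cell RNA was captured with PIPseq and processed with its T2 kit, per the labels' protocols. Partek and the build GRCm39 were used, per the submitters' processing notes; which aligner, annotation and barcode filters were used is not given in the sources used here. The deposited matrices hold whole-number counts per gene and barcode, not normalized by the authors, 64412821 counts over 353485 barcodes for pyrvinium and 64212118 over 331629 for DMSO. Whether a count is a molecule is not stated.

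Cells were barcodes with at least 10% of the 99th percentile count of the top 2000 barcodes, 500 genes and at most 20% mitochondrial counts. Doublets were not removed. CPM are counts summed over cells, with exact Poisson intervals, and ratios have exact conditional binomial intervals. On Poisson counts simulated for 15210 genes, 95.5% of intervals held the true ratio. This checks the calculation only, since the simulation had no spread between cells or cultures. Thinning drew 5000 counts per cell without replacement. Clusters (scanpy 1.11.5, leidenalg 0.10.2, resolution 0.5) used 2000 variable genes, standardized within library, 30 components and 15 neighbours; Python 3.11.15, numpy 2.4.6, scipy 1.17.1 and pandas 2.3.3 were used. The 9 genes are all described; per list, up to 6 genes with the largest absolute log2 ratio at 10 CPM or more could be named, other genes being named where they explain a count. Some marker genes are not reported here. Members and lists were chosen with earlier results of these data known.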

Additional observations from a re-analysis of the deposited data

Results flagged for a closer look

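Barcodes with 100 to 500 counts, which enter no comparison of cells, held 23.6% of the pyrvinium counts and 19.9% of the DMSO counts. In them, 7 of the 9 genes were at least 1.5-fold higher with pyrvinium, beside 6.34% of 13620 genes. Ddit4 was 1.45-fold higher, and Sesn2 had 18.7 CPM under pyrvinium and 21.8 CPM under DMSO. Ddit3 had 371 CPM in 52143 pyrvinium barcodes and 57.4 CPM in 48316 DMSO barcodes, a 6.46-fold difference. Trib3 had 127 CPM with pyrvinium and 27.7 CPM with DMSO, Atf5 51.4 and 15.7 CPM, and Chac1 47.8 and 14.5 CPM. For Nupr1 the levels were 1886 CPM with pyrvinium and 1109 CPM with DMSO, for Atf4 294 and 181 CPM, for Ddit4 130 and 89.6 CPM, and for Cebpg 26.3 and 16.7 CPM. Set beside the cells of the same library, the levels were 98.3% (Chac1) to 149% (Cebpg) under pyrvinium and 111% to 163% under DMSO. Whether these barcodes are droplets with free RNA or small or broken cells was not tested.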

How the results depend on the processing

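With 1 library per treatment no replicate could be left out. No paired analysis was possible because each group holds 1 library. Over 13 other choices of cell threshold, scaling, cell weighting, doublet or deep-cell removal, free RNA subtraction, cluster weighting, gene entries and DMSO cluster 3 (the last added after the data were seen), 7 or 8 of the 9 genes and 22 to 27 of the 35 ATF4 targets were at least 1.5-fold higher, beside 7.14% to 12.9% of all genes tested. The setting with 27 targets, equal cluster weights, was the one with 12.9%. At a 2-fold limit the counts were 4 genes (Ddit3, Trib3, Atf5 and Chac1) and 13 targets. No gene changed direction. Log2 ratios ranged from 2.73 to 4.41 for Ddit3, 2.16 to 3.08 for Trib3, 1.44 to 2.23 for Atf5, 1.56 to 2.28 for Chac1, 0.80 to 1.09 for Atf4, 0.53 to 1.98 for Nupr1, 0.49 to 1.03 for Ddit4, 0.50 to 0.72 for Cebpg and -0.31 to -0.12 for Sesn2. Cebpg passed 1.5-fold in 10 of the 13. Nupr1 missed it as a mean over cells, and Ddit4 when free RNA was taken from barcodes with 10 to 100 counts; the cause was not tested. Scaling by the median of ratios moved all genes by 0.09. At 9000 counts per cell the median r over pairs was 0.05 under pyrvinium and 0.11 under DMSO. The 2 weighted clusters, and counts under 20, limit what could be compared.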
